A study of Mus musculus with 8 samples.

Results

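The genes followed were 10 of bone morphogenetic protein (BMP) signalling: the secreted antagonists Vwc2, Chrd and Nog, the ligand Bmp7, the receptors Bmpr1a and Bmpr2, and the target genes Id1, Id2, Id3 and Id4. All 10 were found by symbol among the 15705 genes of the deposited table, and all 10 passed the filter on low values. They were chosen by role in the pathway and with their adjusted read values in both groups, defined below, already known, Vwc2 for its large difference. Their differences between the groups are therefore given as a description, and nothing is read from the calls given for them. The data are polyadenylated RNA of the lateral ganglionic eminence (LGE), the embryonic source of striatal projection neurons, dissected from mouse embryos at E18.5. The 4 control libraries came from embryos of genotype Isl1 flx/flx, and the 4 conditional knockout (cKO) libraries from Dlx1-Cre; Isl1 flx/flx embryos. Both groups carry the floxed Isl1 alleles, and only the cKO carries the recombinase, which is driven by Dlx1, so Cre and the deletion cannot be told apart. The embryos came from crosses of Dlx1-cre; Isl1flx/+ with Isl1 flx/flx mice and were genotyped from tail tissue; litter, sex and strain are not labelled.

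BMPs are secreted ligands that bind paired type I and type II receptors and act through Smad1, Smad5 and Smad9 with Smad4. Extracellular antagonists, among them noggin (Nog), chordin (Chrd) and brorin (Vwc2), bind the ligand and keep it from its receptors. Id genes are classical targets of the pathway. Id proteins lack a basic DNA-binding region and hold E proteins in inactive dimers, and in the forebrain they are best known from progenitors, glia and vessels.

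The deposited value of a gene in a library is a read value that the authors had scaled and adjusted before rounding it, and is called the adjusted read value here. The sequencing depth is unknown, and the sums of 23732455 to 24456923 per library follow from the scaling. Isl1 itself was not lower in the cKO, with adjusted read values from 3517 to 4186 in the control and from 4930 to 5971 in the cKO. The sources used here do not state which part of the gene Cre removes, so this level is no check of the genotype labels. Of 8 markers of striatal projection neurons all 8 were detected in every library, and their lowest adjusted read value was 893. Summed RPKM of 8 pallial neuron markers was low in control replicate 3 (1.58) and cKO replicate 4 (3.80), against 10.6 to 18.7 in the other 6 libraries. Summed RPKM of 5 choroid plexus markers was 123 in control replicate 1, against 3.08 to 7.70 in the other 7.

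The promoters of Vwc2, Chrd and Id4 are shown because these members include the largest difference, a lower antagonist and the most abundant Id gene. Each line gives the 250 bases before the RefSeq start (GRCm38.p6, plus strand, 5′ to 3′). Capitals mark GGCGCC, a GC-rich Smad-binding core of BMP response elements, and TAAT or its complement ATTA, the core that homeodomain proteins such as Isl1 bind. Vwc2 lies at chr11:11113766-11114015, Chrd at chr16:20732877-20733126 and Id4 at chr13:48260866-48261115.
Vwc2: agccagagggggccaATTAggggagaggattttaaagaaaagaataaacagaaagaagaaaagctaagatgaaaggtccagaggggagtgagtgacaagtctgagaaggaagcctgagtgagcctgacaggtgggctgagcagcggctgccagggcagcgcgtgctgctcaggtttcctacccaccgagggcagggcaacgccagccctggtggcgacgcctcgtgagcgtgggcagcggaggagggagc
Chrd: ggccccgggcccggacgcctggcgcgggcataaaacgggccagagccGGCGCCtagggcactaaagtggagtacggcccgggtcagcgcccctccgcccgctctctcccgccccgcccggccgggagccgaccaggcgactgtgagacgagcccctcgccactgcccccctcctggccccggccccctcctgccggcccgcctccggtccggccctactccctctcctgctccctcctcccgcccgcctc
Id4: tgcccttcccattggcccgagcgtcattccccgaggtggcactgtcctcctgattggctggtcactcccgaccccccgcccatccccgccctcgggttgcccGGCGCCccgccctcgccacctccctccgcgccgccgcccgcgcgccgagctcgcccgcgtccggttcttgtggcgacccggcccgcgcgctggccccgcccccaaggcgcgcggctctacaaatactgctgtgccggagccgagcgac
On either strand, GGCGCC occurred once each in the windows of Chrd, Id4, Id2, Bmpr1a and Bmpr2 and in neither that of Vwc2 nor that of Id3. It was present in 9.59% of 32851 RefSeq promoter windows of this length. TAAT was found in the window of Vwc2, 235 bases before the start, and in none of the other 6 members with a window, and 54.9% of all windows hold it. The 2 motifs do not overlap. The window of Vwc2 had a GC content of 58.8%, against 62.8% to 78.8% in the other 6. These matches describe letters in a short window and show no binding.

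Among the 3 chosen antagonists, Vwc2 and Nog were higher in the cKO and Chrd was lower. In none of the 3 did the groups overlap, which also held for 12.7% of all genes tested, and nothing is read from this count. Vwc2 (chromosome 11, 11114223 to 11268931, plus strand, GRCm38) encodes brorin, a secreted protein with von Willebrand factor type C domains. Its adjusted read values were 37, 57, 29 and 38 in control replicates 1 to 4 and 281, 376, 326 and 410 in cKO replicates 1 to 4. Every cKO library was far above every control, with the lowest cKO value at 281 and the highest control at 57. The ratio of the means was 8.65, and the log2 difference was 3.11 ± 0.19 (SE). In bulk tissue, more cells that express a gene and more RNA per cell cannot be told apart, and this holds for each gene below.

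Nog (chromosome 11, 89300638 to 89302332, minus strand) encodes noggin, which binds BMP ligands with high affinity. The control values were 110, 98, 95 and 95, and the cKO values were 144, 151, 169 and 170. The cKO lay above the control throughout, with a ratio of means of 1.59 and a log2 difference of 0.67 ± 0.10 (SE). Chrd (chromosome 16, 20733127 to 20742384, plus strand) encodes chordin, which is released from its ligand when tolloid proteases cleave it. Its values were 261, 250, 208 and 244 in the control and 179, 173, 160 and 180 in the cKO. Here the cKO lay below the control throughout, and the log2 difference was -0.47 ± 0.09 (SE). The start of Chrd overlaps Thpo on the opposite strand, and the sources used here do not say if counting used strand. Thpo was low, with mean adjusted read values of 24.5 in the control and 21.3 in the cKO.

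**Figure D1:**
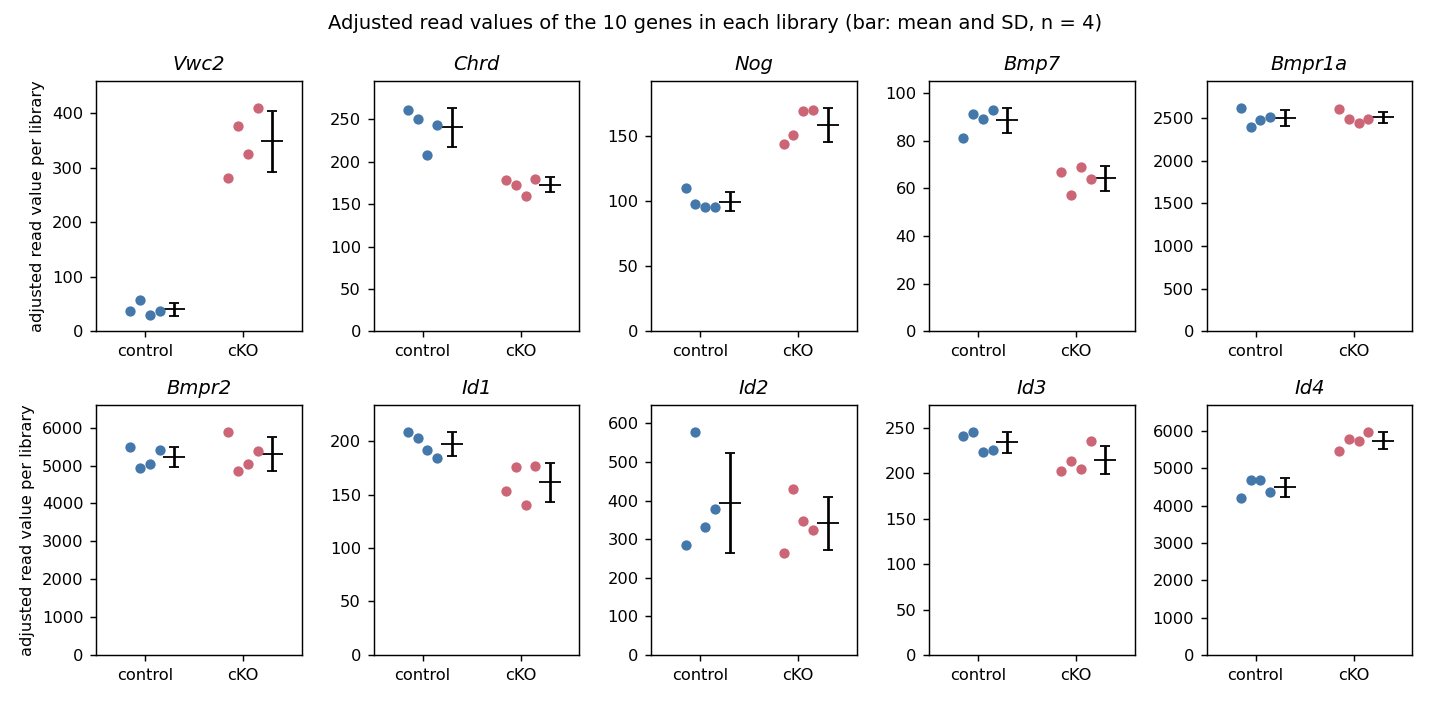
Adjusted read value (vertical axis, from 0) of each of the 10 genes in the 4 control and 4 cKO libraries; points are libraries, bars the mean and SD. Vwc2, Nog and Id4 lie higher in the cKO without overlap, Chrd, Bmp7 and Id1 lower without overlap, and the other 4 genes overlap.

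Levels were compared between genes in RPKM, a read level divided by gene length and library total. In the control, Chrd had the highest level of the 3 chosen antagonists at 2.99 ± 0.31 RPKM, followed by Nog at 2.15 ± 0.18 and Vwc2 at 0.466 ± 0.134 (SD, n = 4). In the cKO the order was the opposite, with Vwc2 at 4.01 ± 0.64, Nog at 3.40 ± 0.27 and Chrd at 2.13 ± 0.11 RPKM (SD, n = 4). This order held within each library, although the ranges of Vwc2 and Nog in the cKO overlapped. The summed level of the 3 antagonists was 4.92 to 6.14 RPKM in the control libraries and 8.55 to 10.5 RPKM in the cKO. Vwc2 made up 6.77% to 11.2% of this sum in the control and 37.9% to 44.6% in the cKO. The share of Chrd went from between 52.0% and 54.9% to between 21.0% and 25.9%, while that of Nog overlapped, at 36.0% to 41.3% and 33.4% to 38.8%. The sum and shares cover these 3 genes only. Some other antagonists and modulators of chordin stood higher, such as Fstl1 at 22.8 and Twsg1 at 21.6 RPKM in the control, and others lower.

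**Figure D2:**
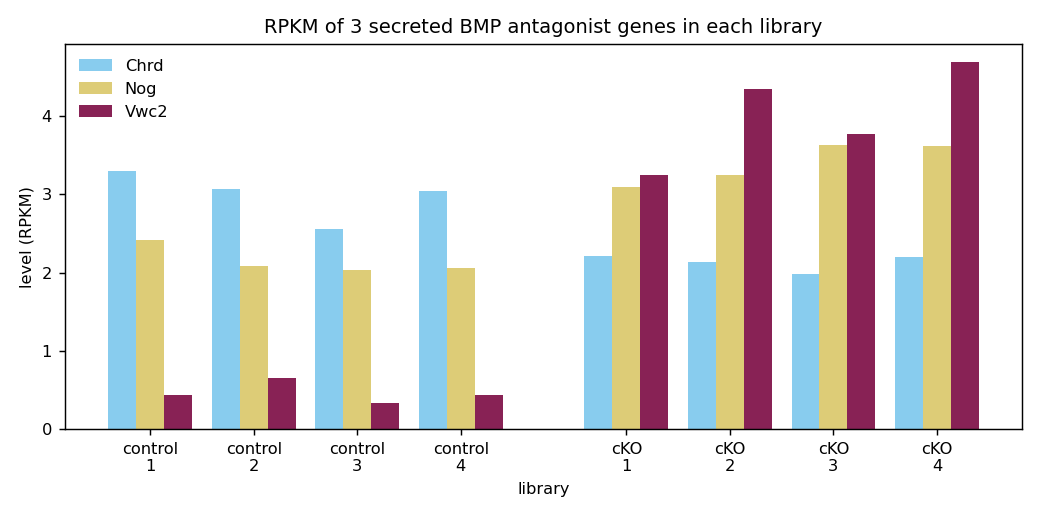
RPKM (vertical axis, from 0) of Chrd, Nog and Vwc2 in each library, 1 group of bars per library. Chrd is the tallest bar in the 4 control libraries and Vwc2 in the 4 cKO libraries.

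The ligand gene Bmp7 (chromosome 2, 172868012 to 172940321, minus strand) was lower in the cKO. The adjusted read values were 81, 91, 89 and 93 in the control and 67, 57, 69 and 64 in the cKO. The groups did not overlap, and the log2 difference was -0.46 ± 0.11 (SE). Its level was low in both groups, at 0.999 ± 0.052 RPKM in the control and 0.721 ± 0.059 RPKM in the cKO (SD, n = 4). Bmp7 is also made by meninges and choroid plexus. Summed RPKM of 6 meningeal fibroblast markers ran from 2.62 to 3.14 in the control and from 2.63 to 2.86 in the cKO, and no marker of this list or of the 5 for choroid plexus passed limma's test. The authors' deposited table called 1 choroid plexus marker. Control replicate 1 stood apart in choroid plexus markers, and the log2 difference of Bmp7 without it was -0.50. The part of either tissue in the Bmp7 values was not tested.

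The receptor genes showed the smallest differences of the 10. Bmpr1a (chromosome 14, 34410734 to 34503341, minus strand), a type I receptor, had adjusted read values of 2622, 2395, 2475 and 2510 in the control and 2607, 2496, 2442 and 2491 in the cKO. Bmpr2 (chromosome 1, 59763400 to 59879014, plus strand), the type II receptor, had 5484, 4946, 5043 and 5422 in the control and 5900, 4870, 5049 and 5390 in the cKO. Both overlapped fully between groups, with log2 differences of 0.01 ± 0.04 for Bmpr1a and 0.02 ± 0.06 for Bmpr2 (SE). In RPKM these receptors were far above Bmp7, Vwc2, Nog and Chrd, at 18.9 ± 1.0 for Bmpr1a and 19.5 ± 1.3 for Bmpr2 in the control (SD, n = 4). The ranges of the pair overlapped.

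Of the 4 Id genes 1 was called by the rule given below, Id4, against 6.66% of all genes tested. Nothing is read from this count, as the members were chosen with these values known. Id4 (chromosome 13, 48261228 to 48266026, plus strand) was higher in the cKO, Id1 (chromosome 2, 152736251 to 152737410, plus strand) had lower values without overlap but was not called, and Id2 (chromosome 12, 25093799 to 25097140, minus strand) and Id3 (chromosome 4, 136143497 to 136145755, plus strand) overlapped. Id4 had adjusted read values of 4198, 4688, 4702 and 4378 in the control and 5459, 5802, 5729 and 5989 in the cKO. All cKO libraries lay above all controls, and the log2 difference was 0.36 ± 0.05 (SE), a ratio of means of 1.28. The antisense gene A330033J07Rik overlaps Id4, and its mean adjusted read values were 5.75 and 6.25 in control and cKO.

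Id1 had values of 209, 203, 192 and 184 in the control and 153, 176, 140 and 177 in the cKO. The groups were apart by a narrow margin, 184 against 177, and the log2 difference was -0.29 ± 0.10 (SE). Id3 had values of 241, 246, 223 and 226 in the control and 203, 214, 205 and 236 in the cKO. Here 3 of the 4 cKO libraries lay below every control and cKO replicate 4 did not, with a log2 difference of -0.13 ± 0.08 (SE).

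Id2 varied most of the 10 relative to its mean in both groups, at 393 ± 130 in the control and 341.5 ± 68.8 in the cKO (SD, n = 4). Its values were 284, 579, 332 and 378 in the control and 264, 430, 348 and 324 in the cKO, with a log2 difference of -0.17 ± 0.20 (SE). Replicate 2 was the highest library of both groups. The same 2 libraries had the highest summed RPKM of pallial neuron markers, 18.7 in control replicate 2 and 17.4 in cKO replicate 2. The 2 libraries lowest in these markers, control replicate 3 and cKO replicate 4, were not the lowest in Id2. The part of pallial tissue in the Id2 values was not tested. Without control replicate 2 the log2 difference of Id2 was 0.03.

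**Figure D3:**
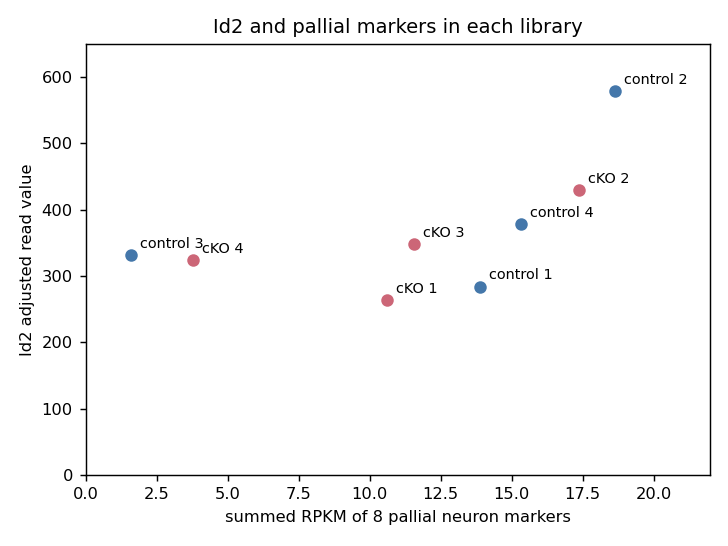
Adjusted read value of Id2 (vertical axis) against the summed RPKM of 8 pallial neuron markers (horizontal axis); each point is a library, blue for control and red for cKO. Control replicate 2 and cKO replicate 2 are the farthest right and the highest of their groups.

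In level, Id4 stood above the other 9 genes in both groups, at 112 ± 5 RPKM in the control and 143 ± 5 RPKM in the cKO (SD, n = 4). It made up 75.2% to 80.2% of the summed Id level in the control and 82.3% to 84.9% in the cKO. The sum itself was 136 to 154 RPKM in the control and 160 to 176 RPKM in the cKO. Below Id4, the order in the control ran Bmpr2, Bmpr1a, Id2, Id3, Id1, Chrd, Nog, Bmp7 and Vwc2. The ranges of Bmpr2 and Bmpr1a, of Bmpr1a and Id2, and of Id2 and Id3 overlapped, and the other neighbours in this order did not. In the cKO the first 6 genes, Id4 included, stood in the same order, and Vwc2 moved from the last place to the seventh.

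A gene was called where limma's p, adjusted by Benjamini-Hochberg over all genes, was under 0.05. This held for 5 of the 10, Vwc2, Nog and Id4 as higher and Chrd and Bmp7 as lower, and for 6.66% of all 15698 genes tested, 2.87% as higher and 3.78% as lower. The groups did not overlap in 6 of the 10, 3 in each direction, against 12.7% of all genes tested, 6.37% with the cKO higher and 6.33% with the cKO lower. The call of Bmp7 was lost under 9 of 19 alternatives, among them 6 of the 8 that left out 1 library, and those of the other 4 genes under none. Because the comparison entered the choice of the genes, nothing is read from these counts. The authors' deposited table also held 5 of the 10 at an adjusted p under 0.05, and 6.54% of all genes tested.

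The comparison of cKO with control was then tested in other genes of the pathway, which the choice of the 10 did not use. These lists were also set with earlier results of the data known, so they are not an independent set. They are broad, and some of their GDF ligands, receptors and Smads lie outside BMP signalling as outlined above. Of 74 listed genes 63 were in the table and all 63 were tested. Of these, 1 rose and 5 fell (limma, adjusted over all 15698 genes), 9.52% against 6.66% of all genes. The authors' deposited table called 4 of the 63, beside 6.54% of all genes tested, so the higher share rests on the fit used here. The median log2 change was -0.04, beside 0.01 over all genes tested. Hey1 alone of the 6 calls was kept under every alternative run. The number that fell was 3 without control replicate 1, 2 without control replicate 2 or any 1 cKO library and 1 without control replicate 4, and the number that rose was 2 without control replicate 3 and 0 when any of control replicates 2 and 4 and cKO replicates 1, 2 and 4 was left out.

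Hey1, a basic helix-loop-helix repressor that responds to BMP as well as to Notch, had adjusted read values of 634, 600, 603 and 599 in the control and 482, 504, 497 and 493 in the cKO. It fell by a log2 change of -0.30 ± 0.05 (SE, limma adjusted p = 0.00227), with all 4 cKO libraries below all controls. Hey1 was the only call among 6 tested target genes outside the Id family, 16.7% against 6.66% of all genes. The 6 log2 changes lay between -0.57 and -0.06 with a median of -0.27, and 47.6% of all genes tested had a negative change. Msx1 (-0.25 ± 0.30) and Atoh8 (-0.23 ± 0.39, SE) had few reads and overlapping groups. Nothing is read from the shared sign. Bambi, a decoy receptor induced by BMP, had 125, 125, 128 and 108 in the control and 77, 107, 90 and 96 in the cKO. The inhibitory Smad gene Smad6, singled out after its values were seen, had 55, 44, 52 and 51 in the control and 36, 22, 37 and 43 in the cKO. Neither passed the test (limma adjusted p = 0.0787 for Bambi and 0.136 for Smad6), although in both the groups did not overlap, as in 6.33% of all genes with the cKO lower. The inhibitory Smad gene Smad7 was at -0.06 ± 0.09 (SE, limma adjusted p = 0.791).

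Among 18 tested antagonists and modulators of chordin, 1 rose and 3 fell, 22.2% against 6.66% of all genes. The authors' deposited table called 2 of the 18, Kcp and Chrdl2. Fstl1, which encodes a secreted follistatin-like glycoprotein, rose by 0.14 ± 0.04 on the log2 scale (SE, limma adjusted p = 0.0398). Bmp1, a tolloid protease that cleaves chordin, fell by a log2 change of -0.15 ± 0.04 (SE, limma adjusted p = 0.0317). Both are small, and both calls depend on the fit. The Fstl1 call did not hold when control replicate 2 or 4, or cKO replicate 1, 2 or 4, was left out (limma adjusted p from 0.0785 to 0.149), and that of Bmp1 without any 1 library other than control replicate 3 (0.0598 to 0.117).

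Kcp, a kielin/chordin-like modulator of BMP, fell by -0.33 ± 0.09 (SE, limma adjusted p = 0.0419), from control values of 353, 429, 418 and 393 to 283, 307, 358 and 318. The groups overlapped between 353 and 358. It no longer passed when control replicate 2, 3 or 4, or cKO replicate 1, 2 or 4, was left out (limma adjusted p from 0.0912 to 0.108). Chrdl2, a chordin-like antagonist, was near the limit of detection, with 11, 5, 5 and 8 in the control and 2, 2, 0 and 0 in the cKO. Its log2 change of -2.19 ± 0.50 (SE, limma adjusted p = 0.0234) ranged from -3.92 to -0.64 with the pseudocount. Leaving out control replicate 1 or 4, or cKO replicate 3 or 4, ended the call (limma adjusted p from 0.054 to 0.0855). Twsg1, a chordin partner and one of the 3 most abundant genes of this list, was at 0.07 ± 0.04 (limma adjusted p = 0.423).

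None of 11 tested BMP and GDF ligands besides Bmp7 passed the test in either direction, and none had an unadjusted p under 0.05. Their most abundant members, Gdf1, Gdf11 and Bmp6, had log2 changes of -0.14 ± 0.08, -0.02 ± 0.05 and -0.05 ± 0.11 (SE). None of 13 further receptors and co-receptors passed, and 1 had an unadjusted p under 0.05. Acvr1b, Neo1 and Rgmb, the most abundant of them, were at -0.03 ± 0.05, 0.05 ± 0.04 and 0.02 ± 0.04 (SE). The authors' deposited table held no call in either list.

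Of 15 Smads and Smad regulators, 1 fell and none rose, 6.67% against 6.66% of all genes. Zfp423, a zinc finger partner of BMP-activated Smads, had values of 356, 417, 368 and 359 in the control and 272, 285, 254 and 335 in the cKO, a log2 change of -0.39 ± 0.09 (SE, limma adjusted p = 0.0244). Its groups did not overlap, and its call was lost without any 1 of control replicates 2, 3 and 4 and cKO replicates 1, 2 and 3 (limma adjusted p from 0.0504 to 0.0622). Of the Smads that carry the signal, Smad4 was at -0.09 (95% interval -0.17 to -0.01, limma adjusted p = 0.204) and Smad5 at 0.02 (95% interval -0.07 to 0.12, limma adjusted p = 0.832). Smad1 was at 0.13 (95% interval 0.01 to 0.24, limma adjusted p = 0.223) and Smad9, with few reads, at -0.12 (95% interval -0.91 to 0.67, limma adjusted p = 0.906). The corepressor Ski was at -0.01 ± 0.03 (SE). None of the 3 E protein genes that Id proteins bind passed. Tcf4 was at 0.00 (95% interval -0.13 to 0.14), Tcf12 at 0.09 (0.00 to 0.18) and Tcf3 at 0.03 (-0.05 to 0.12), and 1 of the 3 had an unadjusted p under 0.05.

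**Figure D4:**
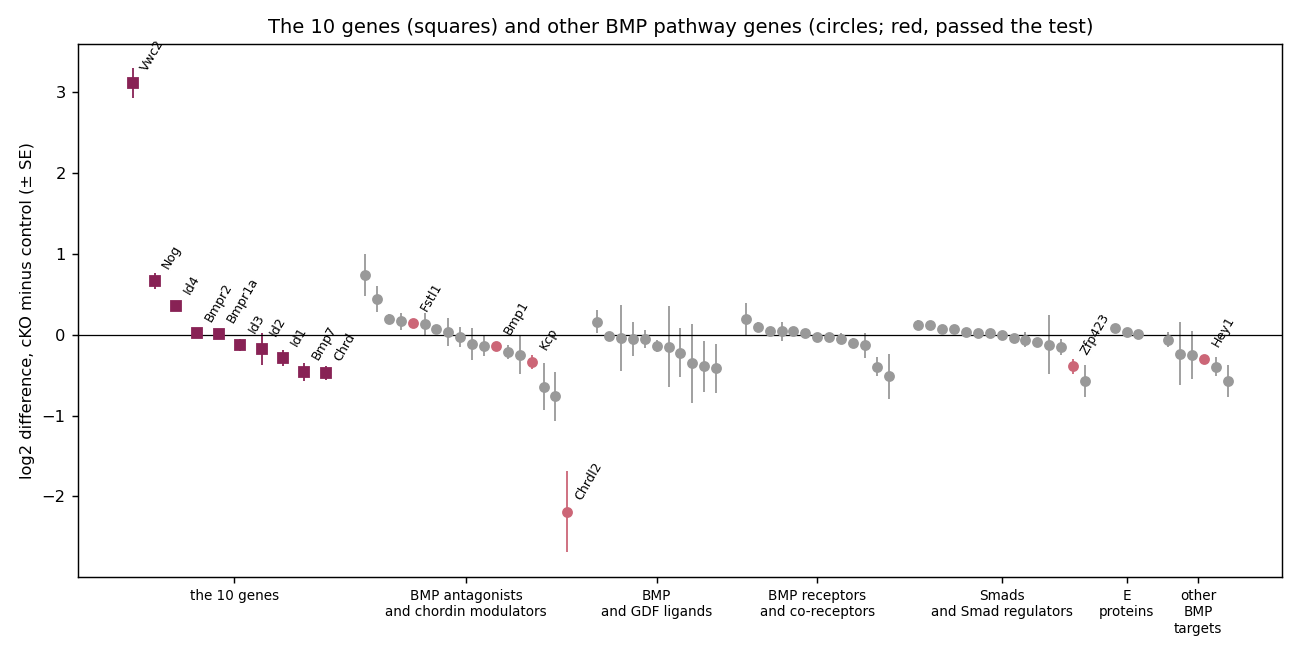
Log2 difference of cKO minus control with its SE (vertical axis) for the 10 genes (squares) and 63 other pathway genes by role (circles, red where the test was passed; genes in 2 lists appear in both). Vwc2 stands at 3.11 and Chrdl2 at -2.19, while most other points lie close to 0.

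By position, Vwc2 is a neighbour of Ikzf1, the gene of the Ikaros zinc finger transcription factor. Within 1 Mb of Vwc2 6 other genes were tested, all on the side beyond its end, and 1 was called. Ikzf1 (chromosome 11, 11685003 to 11772926, plus strand) starts 416 kb beyond the end of Vwc2, with Zpbp between them. Ikzf1 fell from a mean adjusted read value of 3537 ± 469 to 99.0 ± 18.2 (SD, n = 4), a log2 change of -5.15 ± 0.12 (SE, limma adjusted p = 1.38e-09). Zpbp, which lies 10.7 kb beyond Vwc2, was at -0.21 ± 0.21 (SE, limma adjusted p = 0.654). The other 4, Fignl1, Ddc, Grb10 and Cobl, lay between -0.13 and 0.13 (limma adjusted p from 0.255 to 0.756). These neighbours were looked at after their values were seen. Within 1 Mb of Nog 12 genes and of Id4 13 genes were tested, and none was called. Of 34 genes within 1 Mb of Id3, 3 rose and 1 fell, and the 3 are the complement genes C1qa, C1qb and C1qc. Around each of the other 6 members 8 to 37 genes were tested, and 1 to 3 were called.

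**Figure D5:**
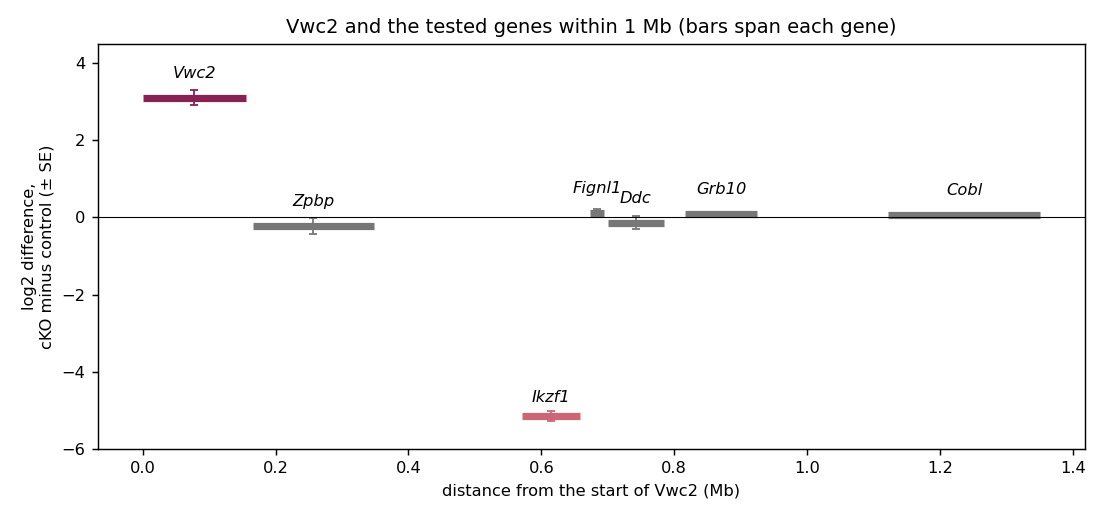
Log2 difference of cKO minus control with its SE (vertical axis) against distance from the start of Vwc2 in Mb (horizontal axis) for Vwc2 and the 6 tested genes within 1 Mb; bars span each gene. Vwc2 is at 3.11 and Ikzf1 at -5.15, and the other 5 genes lie between -0.21 and 0.13.

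The profiles most like that of a member were sought by the root mean square difference of log2 values over the 8 libraries, after each gene's mean was subtracted, among 12425 genes with a mean of at least 1 RPKM. For Vwc2 the nearest were Bhlhe22 (0.55), Spp1 (0.60) and Prr15 (0.63), whose log2 differences of 2.61, 2.44 and 1.87 were all smaller than that of Vwc2. For Id4 the nearest were Tmem196 (0.03), Chn2 (0.03) and Mpped1 (0.04), with log2 differences of 0.33, 0.36 and 0.37. For Id1 they were Nrsn1 (0.07), Tmem205 (0.07) and 1700037H04Rik (0.08), with log2 differences from -0.32 to -0.25. The measure takes in the difference between the groups, so a like log2 difference follows from the search and is no result. All 8 libraries share the removed factor, so likeness within a group is partly set by the processing.

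Markers of other cells in the dissection moved with the groups in part. Of 10 microglial markers 9 rose and none fell, and their summed level was 51.3 to 58.2 RPKM in the control and 80.3 to 100.5 RPKM in the cKO. Among them C1qb and C1qc rose by 0.84 ± 0.11 and 0.90 ± 0.10 on the log2 scale (SE). The part of microglia in the values of Vwc2, Nog and Id4 was not tested. Of 8 endothelial markers, cells in which Id1 and Id3 are also made, none rose or fell, and the summed level overlapped, at 61.2 to 69.5 RPKM in the control and 61.1 to 75.9 RPKM in the cKO. Of 8 markers of astroglia and radial glia, which also make Id4, 1 rose and none fell, and the sum was 1581 to 1710 RPKM in the control and 1362 to 1622 RPKM in the cKO. The 8 log2 changes ran from -0.18 to 0.38 with a median of -0.07, so the riser does not stand for the list. The riser was Sox9, at 0.38 ± 0.07 (SE, limma adjusted p = 0.00502), named after its value was seen. It no longer passed without the 2 libraries low in pallial markers (limma adjusted p = 0.0543). Of 8 markers of striatal projection neurons 3 fell and none rose, with sums of 538 to 579 RPKM and 499.6 to 539.6 RPKM. No marker in the microglial, endothelial, glial or striatal list was at 0 in any library.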

How the data were processed

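Polyadenylated RNA of 8 LGE samples, 1 µg of total RNA each, was sequenced as single 85-base reads from a directional kit, per the labels' protocols. STAR, featureCounts and edgeR, without versions, and build mm10 are named in the submitters' processing notes; the sources used here do not state the counting options. The authors' deposited columns named as raw hold a score and not counts: their upper quartiles lay between 1624 and 1635, and 1 residual direction had almost no variation (singular value 0.000241 against 0.0435 for the next). This is the trace of a removed factor, read from the values, which makes SDs and SEs too small to a degree. The deposited RPKM columns equal that score over library sum and gene length, as checked in the values and named per the file headers. The authors' deposited log2 fold changes and p-values were an alternative only.

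Values were transformed to log2(value + 1), and the 15698 genes that reached 1 in 4 libraries were fitted with limma 3.58.1 (mean trend) in R 4.3.3. The fit also gives the SE of every log2 difference. P-values set each difference against the spread between libraries of a group, which the removed factor makes too small to a degree. Litters are not stated. The procedure was tested in 10 simulations whose spread was taken from the adjusted read values. It called 68.4% of log2 changes of 0.5, 81.4% of those of 1 and 0.179% of unchanged genes. Changes under 0.5 were not simulated. The genes, lists and tests were chosen with earlier results of these data known. Genes named are the 10, pathway genes that passed, the 3 most abundant of each pathway list, the 3 nearest profiles of Vwc2, Id1 and Id4, and up to 3 markers of a cell type. Outside this rule, Isl1 was named as the targeted gene and does not check the labels. Smad1, Smad6, Smad9, Msx1, Atoh8 and Sox9 were named after their values were seen. So were the neighbours of Vwc2 and Id3 and the genes that overlap Chrd and Id4. Gene coordinates are from GENCODE M21 on GRCm38, which mm10 denotes, where 97.8% of the 15705 symbols were found. Promoter windows are from RefSeq (GRCm38.p6) and were matched by symbol for 7 of the 10. Alternatives were other pseudocounts, filters, scalings and units, the removed direction charged to the model, the authors' table, the replicate block and leaving out libraries. Replicate numbers were checked for pairing, which no label states and which the check could not decide, so the main fit left it out.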

Additional observations from a re-analysis of the deposited data

Results flagged for a closer look

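In 2 of 98 groups of 4 libraries examined for the named genes, 1 library stood far from the other 3, where chance flags about 1 group in 20. For Hey1, control replicate 1 was at 634 and the other controls at 599 to 603, and all were above the cKO. For Bambi, control replicate 4 was at 108 and the other controls at 125 to 128.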

How the results depend on the processing

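The 190 member values under alternatives all stayed within 1 replicate SD of the value reported, but for most of them this was fixed in advance. The filters, the charged direction and the replicate block leave a log2 difference as it is. Leaving out 1 of 4 libraries cannot move it by 1 SD. Under the alternatives 4 or 5 members were called, the loss being that of Bmp7 each time. Among pathway genes outside the members, the 1 rise became 0 with RPKM values, with either other scaling, with the missing direction charged to the model, in the authors' table, with the replicate block and without the 2 libraries low in pallial markers, and 0 to 2 when 1 library was left out. The 5 falls became 3 with the missing direction charged, and 1 to 5 when 1 library was left out. Over all genes, 1045 calls became 608 without the 2 libraries low in pallial markers and 658 to 959 without 1 library. The replicate block gave 1199 calls over all genes, 4 pathway falls and 4 called members. Deviations of same-numbered libraries had correlations of 0.0576, 0.132, -0.0473 and -0.487, and those of different numbers ran from -0.385 to 0.618. The replicate block lowered the SE of some members, such as Id2 (0.20 to 0.08), and raised that of others, such as Bmp7 (0.11 to 0.14). No label says that the numbers pair libraries, and with 1 direction removed these correlations cannot decide it. The calls of Fstl1 and Bmp1 were also lost in the authors' table (adjusted p = 0.278 and 0.265) and with the replicate block (0.0521 and 0.0561). Chrdl2 gave no value with the stricter filter. No called gene changed sign. The sign changed under some alternative for 9 genes that were not called, Bmpr1a, Bmpr2, Id2, Gdf11, Bmp6, Rgmb, Ski, Smad5 and Tcf4, to values between -0.04 and 0.03. The cause of these changes was not tested. The unknown depth limits what can be said of genes with few reads, such as Chrdl2.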
